A study of Arabidopsis thaliana with 10 samples.

Results

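The autophagy (ATG) genes are described here across whole seedlings of Arabidopsis thaliana measured on 10 Affymetrix ATH1 arrays. A gene was a member if the platform annotation gave one of its probe sets that single gene and a symbol made of ATG and a number. This gave 8 genes, each with 1 probe set, out of 13356 genes with a single-gene probe set: ATG3 and 7 genes of the ATG8 family, ATG8B to ATG8H. Every probe set had an ID ending in plain _at, which on this platform marks a probe set designed for 1 transcript, but the ATG8 genes are close relatives and hybridization between them was not tested. The plants were Col-0 with both AtGLK1 and AtGLK2 knocked out by transposon insertions, genes for transcription factors that promote chloroplast development. All groups carried these knockouts and grew under 16 h light and 8 h dark with hygromycin B, for 10 days on plates and then in flasks of about 100 seedlings, so 1 sample is a pool of plants. The groups were dexamethasone for 4 h, dexamethasone for 24 h, and the solvent DMSO at 0 h, 4 h and 24 h, with 2 arrays each. The study asked for targets of AtGLK1, and its titles call the dexamethasone samples induced. The labels name no transgene, and every dexamethasone sample had the same alleles, so an effect of the steroid itself and of what it induces cannot be told apart. Nothing states that the 2 replicates came from separate cultures, so the spread behind each p-value may be only technical.

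Autophagy encloses cytoplasm or organelles in a double membrane, the autophagosome, and delivers them to the vacuole for breakdown. ATG8 is a small ubiquitin-like protein that becomes anchored in this membrane, where it helps the membrane grow and captures cargo receptors. ATG4 trims the end of ATG8, ATG7 activates it, and ATG3 is the conjugating enzyme that passes it to the lipid phosphatidylethanolamine. Plants carry a family of ATG8 genes in place of the single gene of yeast, and in leaves the pathway recycles nitrogen and carbon, chloroplast proteins included, during starvation and senescence.

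Values are signal intensities on a linear scale, scaled by the authors to a common mean on every array. Array medians lay between 33.9 and 35.9, and replicates correlated across all probe sets with r between 0.975 and 0.985 on the log2 scale. The knockouts could not be checked, since 0 annotated single-gene probe sets belong to AtGLK1 or AtGLK2. The labelled tissue was checked by its markers: all 7 of 10 green-tissue markers with a probe set passed the level used for testing, with a summed signal of 12223 to 18468 per array, and 3 of 6 root markers summed to 3291 to 4274. PYK10, with 3158 to 4154, made up most of the root sum, while EXPA7 had 32.1 to 57.2 and EXPA18 48.6 to 87.8. Replicate 2 of dexamethasone at 4 h and replicate 1 of DMSO at 24 h stood apart from the other 8 arrays on the second axis of variation, which held 23.4% of the variance. A list of 9 defence transcripts had been chosen with earlier results of these data known. On the 2 arrays that stood apart the summed signal of the 5 with a single-gene probe set was 10295 and 7412, against 596 to 1356 on the other 8. AT4G12490, AT4G12500 and AT2G43620 made up most of these sums and CHI was also highest there, while PDF1.2, in the same list, had 361 and 208 on the 2 arrays and 244 to 482 on the other 8. The main results that use either array are therefore also given without both. A signal from bulk tissue does not distinguish fewer cells that express a gene from less RNA per cell.

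All 8 genes could be tested: a probe set had to exceed percentile 40 of its array (a signal of 19.2 to 20.9) on 2 or more arrays. ATG3, the conjugating enzyme, varied least. Its signal was 152 and 171 in DMSO at 0 h, 170 and 158 with dexamethasone and 151 and 149 with DMSO at 4 h, and 167 and 159 with dexamethasone and 163 and 166 with DMSO at 24 h. Its highest array was only 1.15 times its lowest. The 4 h DMSO pair had the lowest mean and did not overlap the next one, while the other 4 group means, 162 to 164, lay within each other's spread.

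ATG8E, which encodes a ubiquitin-like protein of the family, varied most, with a highest array 2.80 times its lowest. Its signal was 182 and 147 in DMSO at 0 h, 135 and 228 with dexamethasone and 81.5 and 118 with DMSO at 4 h, and 206 and 190 with dexamethasone and 200 and 169 with DMSO at 24 h. The 2 DMSO arrays at 4 h were the lowest of all 10, and the highest array was replicate 2 of dexamethasone at 4 h, 1 of the 2 arrays with high defence transcripts. In order of group means, dexamethasone at 24 h (198 ± 11.6), DMSO at 24 h (184 ± 21.7), dexamethasone at 4 h (181 ± 65.8) and DMSO at 0 h (165 ± 25.2) overlapped from one to the next, and only DMSO at 4 h (99.8 ± 25.9; SD, n = 2 for all) lay clear of its neighbour.

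ATG8D had a different profile. Its signal was 82.1 and 74.3 in DMSO at 0 h, 97.8 and 127 with dexamethasone and 95.5 and 111 with DMSO at 4 h, and 66.3 and 78.0 with dexamethasone and 88.6 and 75.6 with DMSO at 24 h. The 4 arrays at 4 h were thus its 4 highest, in both treatments. The groups at 4 h overlapped each other, as did the 3 others.

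ATG8B ranged over 1.71-fold. Its signal was 71.4 and 71.4 in DMSO at 0 h, 56.8 and 82.9 with dexamethasone and 55.5 and 48.4 with DMSO at 4 h, and 81.2 and 72.7 with dexamethasone and 78.6 and 57.6 with DMSO at 24 h. As with ATG8E, the 4 h DMSO pair was lowest, and the higher value of the 4 h dexamethasone pair and of the 24 h DMSO pair came from the 2 arrays with high defence transcripts.

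ATG8F had 631 and 549 in DMSO at 0 h, 502 and 604 with dexamethasone and 468 and 522 with DMSO at 4 h, and 588 and 580 with dexamethasone and 668 and 635 with DMSO at 24 h. Its 24 h DMSO pair was the highest group and lay clear of every other. ATG8C had 216 and 173 in DMSO at 0 h, 183 and 224 with dexamethasone and 178 and 190 with DMSO at 4 h, and 210 and 200 with dexamethasone and 198 and 201 with DMSO at 24 h, and all of its neighbouring groups overlapped. ATG8H, which with ATG8I forms the branch of the family whose proteins end in the glycine used for lipid attachment and need no trimming, ranged from 76.7 to 116, and its neighbouring groups overlapped too. ATG8G was the member nearest the level required for testing, with 43.0 and 59.3 in DMSO at 0 h, 39.0 and 46.8 with dexamethasone and 30.6 and 52.1 with DMSO at 4 h, and 49.2 and 31.8 with dexamethasone and 42.3 and 42.0 with DMSO at 24 h. Its replicates differed by up to 0.69 on the log2 scale (4 h DMSO), and its neighbouring groups in the order of means overlapped.

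**Figure D1:**
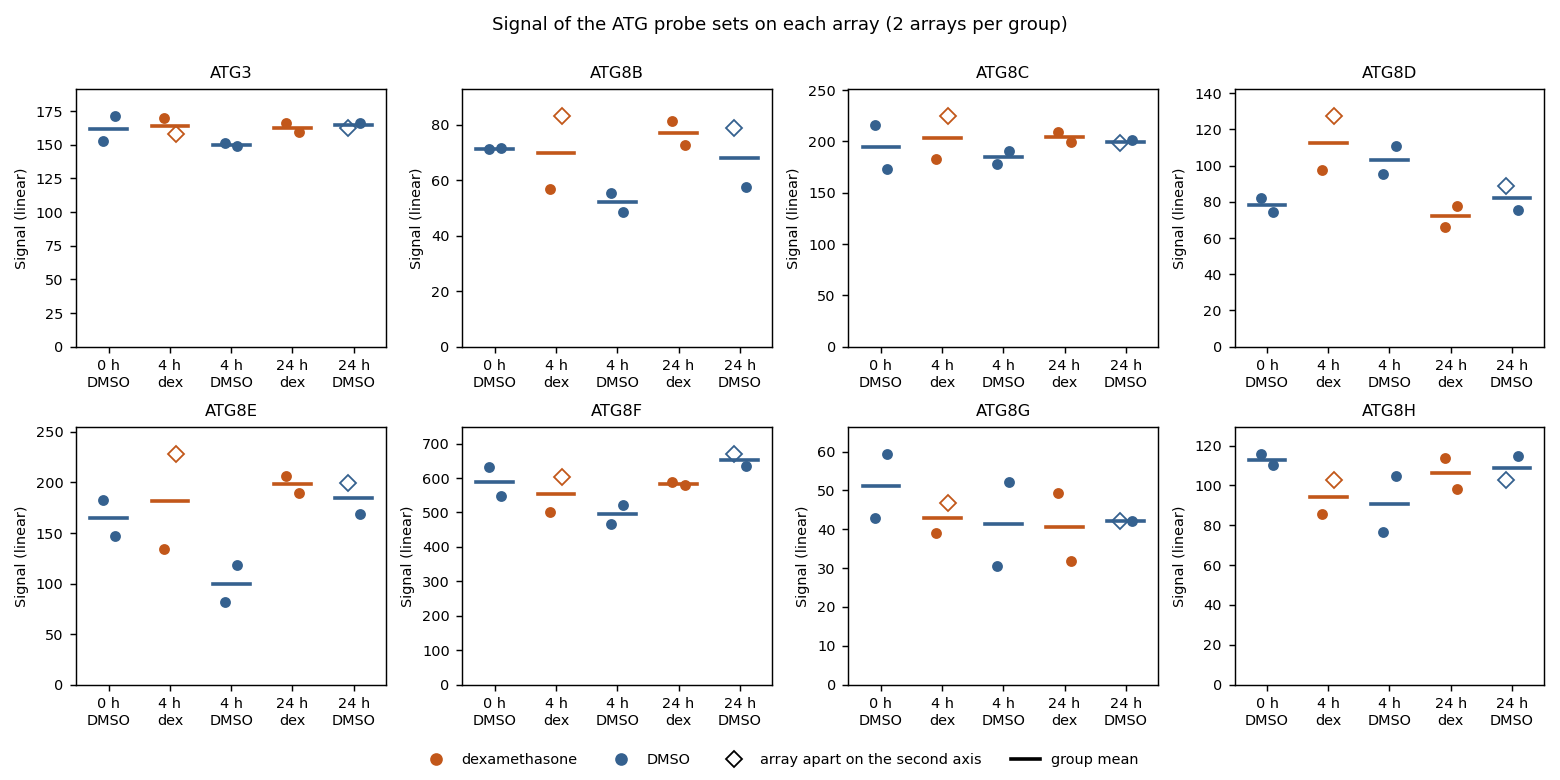
Signal (linear scale, from 0) of the 8 ATG probe sets on each of the 10 arrays, by group. Points are arrays, bars are group means (n = 2), and open diamonds are the 2 arrays that stood apart; ATG8E is lowest on the 2 DMSO arrays at 4 h (81.5 and 118), and ATG8D is highest on the 4 arrays at 4 h (95.5 to 127).

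The first comparison set dexamethasone against DMSO at 4 h. No ATG gene passed limma's test over all probe sets at an adjusted p of 0.05, and 1 of 8, ATG8E, had an unadjusted p below 0.05. Over all 14575 probe sets 0.00686% passed and 7.01% had an unadjusted p below 0.05. ATG8E had 135 and 228 with dexamethasone, against 81.5 and 118 with DMSO, a log2 change of 0.81 with an SE of 0.23 (95% interval 0.30 to 1.32, limma adjusted p = 0.651). ATG8B had a log2 change of 0.38 with an SE of 0.20 (limma adjusted p = 0.719) and ATG8F of 0.15 (SE 0.12, limma adjusted p = 0.805). The remaining 5 had log2 changes between 0.06 and 0.13.

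All 8 log2 changes at 4 h lay above 0, with a median of 0.13, while 47.8% of all tested probe sets lay above 0 and their median was -0.01. In ATG3, ATG8B and ATG8E both dexamethasone arrays exceeded both DMSO arrays, as in 16.5% of all probe sets; in none did both lie below, against 18.4%. The dexamethasone array with high defence transcripts was the higher of its pair in 7 of the 8 genes, all but ATG3. Of all tested probe sets 44.45% were higher on it. Without both arrays that stood apart, which leaves 1 dexamethasone array at 4 h that is assumed to vary like the other groups, 4 of 8 lay above 0 and the median was 0.00. ATG8E then had a log2 change of 0.44 with an SE of 0.21 (limma adjusted p = 0.997), and ATG8B of 0.12 (SE 0.19, limma adjusted p = 0.997). In contrast, without replicate 1 of dexamethasone at 4 h, where only the array with high defence transcripts remained, ATG8E had 1.18 and passed (limma adjusted p = 0.0434). Without replicate 2 of dexamethasone at 4 h alone the value for ATG8E was 0.44. The DMSO arrays at 4 h mattered too. Without replicate 1 of DMSO at 4 h, 6 of 8 genes lay above 0 and the median was 0.08. Without replicate 2 of DMSO at 4 h all 8 lay above 0 and the median was 0.25. The part of the high defence transcripts in these values was not tested.

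At 24 h no ATG gene passed in limma or had an unadjusted p below 0.05, where 0.00686% and 3.09% of all probe sets did. ATG8E had 206 and 190 with dexamethasone, against 200 and 169 with DMSO, a log2 change of 0.11 with an SE of 0.23 (95% interval -0.41 to 0.62, limma adjusted p = 0.999). The groups overlapped for 7 of 8 genes, and none lay wholly higher, where 18.0% of all probe sets did. In ATG8F both dexamethasone arrays, 588 and 580, lay below both DMSO arrays, 668 and 635, as in 14.1% of all probe sets, and its log2 change was -0.16 with an SE of 0.12 (limma adjusted p = 0.999). ATG8B had 0.18 (SE 0.20) and ATG8D -0.18 (SE 0.17), both with limma adjusted p = 0.999. Above 0 lay 3 of 8 genes, with a median of -0.02, against 52.5% of all probe sets and a median of 0.01. Without replicate 2 of dexamethasone at 24 h it was 6 of 8 with a median of 0.07. Without both arrays that stood apart it was 3 of 8 with a median of -0.05, while ATG8B moved to 0.39 (SE 0.19, limma adjusted p = 1.00). The summed signal of the 7 green-tissue markers was 18468 and 17899 with dexamethasone, against 14101 and 15520 with DMSO; its part in these values was not tested.

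Averaged over 4 h and 24 h, ATG8E had a log2 change of 0.46 with an SE of 0.20 (limma adjusted p = 0.999), with dexamethasone signals of 135 to 228 overlapping DMSO signals of 81.5 to 200. The groups of 4 overlapped for all 8 genes; 0.961% of all probe sets lay wholly higher and 1.1% wholly lower with dexamethasone. It was the 1 ATG gene with an unadjusted p below 0.05, and none passed, while 0.0137% of all probe sets passed and 4.25% had an unadjusted p below 0.05. ATG8B had 0.28 (SE 0.14) and ATG8C 0.08 (SE 0.09), with limma adjusted p = 0.999 for both. Without both arrays that stood apart ATG8E had 0.33 (SE 0.13, limma adjusted p = 0.720), and without replicate 2 of dexamethasone at 4 h alone the ATG8E value was 0.24.

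Whether the dexamethasone effect differed between the times was tested directly, as the 24 h effect minus the 4 h effect. ATG8E had a difference of -0.70 (SE 0.33, 95% interval -1.43 to 0.02, limma adjusted p = 0.832). ATG8F had -0.31 (SE 0.17, limma adjusted p = 0.832) and ATG8D -0.29 (SE 0.23, limma adjusted p = 0.851). None of the 8 passed or had an unadjusted p below 0.05; over all probe sets 0.0% passed and 5.48% had such a p. All 8 differences were below 0 (median -0.18), where 53.0% of all probe sets were above 0, but without both arrays that stood apart 3 of 8 were above 0, the median was -0.05 and the value of ATG8E was -0.22 (SE 0.29, limma adjusted p = 1.00).

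**Figure D2:**
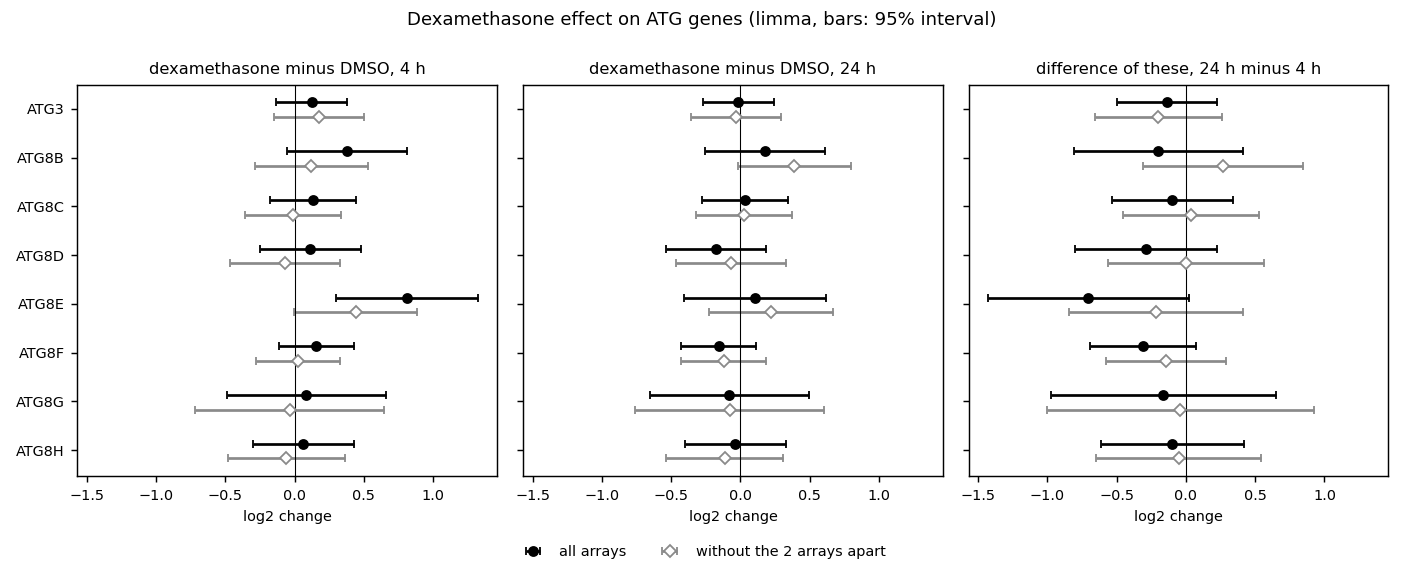
log2 change of the 8 ATG genes for dexamethasone minus DMSO at 4 h and at 24 h, and the difference of these effects; points are limma estimates and bars 95% intervals, with all arrays (black) and without the 2 arrays that stood apart (open, grey). ATG8E at 4 h is 0.81 with all arrays and 0.44 without the 2, and every other interval with all arrays includes 0.

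The DMSO samples show the ATG genes over time without dexamethasone. Plants grew under a daily light cycle, so at 4 h the time of day and the time since the start cannot be told apart. In the 4 h pair against the 0 h pair, 7 of 8 log2 changes lay below 0 with a median of -0.28, against 49.3% of all probe sets above 0 and a median of -0.00. ATG8E had 81.5 and 118 at 4 h, against 182 and 147 at 0 h, a log2 change of -0.71 with an SE of 0.23 (95% interval -1.23 to -0.20, limma adjusted p = 0.179). ATG8B had -0.43 (SE 0.20, limma adjusted p = 0.368). ATG8D was the exception in sign, with 95.5 and 111 at 4 h, against 82.1 and 74.3 at 0 h, a log2 change of 0.38 with an SE of 0.17 (limma adjusted p = 0.337).

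None of the 8 passed at 4 h against 0 h, where 2.63% of all probe sets passed. ATG8D and ATG8E had an unadjusted p below 0.05, as did 13.6% of all probe sets. In 5 genes, ATG3, ATG8B, ATG8E, ATG8F and ATG8H, both 4 h arrays lay below both 0 h arrays, as in 22.6% of all probe sets, and in ATG8D both lay above, as in 21.9%. Neither of the arrays that stood apart is in this comparison, but they enter the shared estimate of the spread. Without both, the log2 change of ATG8E was the same and it passed (SE 0.17, limma adjusted p = 0.0286). Without replicate 1 of DMSO at 4 h the log2 change of ATG8E was -0.46 (limma adjusted p = 0.611) and the median of the 8 genes was -0.11.

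At 24 h against 0 h, the same time of day, no ATG gene passed in limma and none had an unadjusted p below 0.05, where 0.0% and 4.54% of all probe sets did. ATG8G had 42.3 and 42.0 at 24 h, against 43.0 and 59.3 at 0 h, a log2 change of -0.24 with an SE of 0.26 (limma adjusted p = 0.971). ATG8E had 0.16 (SE 0.23, limma adjusted p = 0.975) and ATG8F 0.15 (SE 0.12, limma adjusted p = 0.971). The 8 genes had a median of 0.03 with 5 above 0. It was 0.03 without both arrays that stood apart, -0.02 with 3 above 0 without replicate 2 of DMSO at 0 h, and 0.08 with 6 above 0 without replicate 2 of DMSO at 24 h. ATG8F was higher without overlap, as were 16.1% of all probe sets, and ATG8G lower, as were 16.4%.

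Against 4 h, the 24 h DMSO samples showed the opposite signs to those of 4 h against 0 h; both comparisons use the 4 h DMSO arrays, so they are not independent. ATG8E had 200 and 169 at 24 h, against 81.5 and 118 at 4 h, a log2 change of 0.88 with an SE of 0.23 (95% interval 0.36 to 1.39, limma adjusted p = 0.0702). ATG8F had 668 and 635, against 468 and 522, a log2 change of 0.40 with an SE of 0.12 (limma adjusted p = 0.116). ATG8B had 0.35 (SE 0.20, limma adjusted p = 0.394), and 0.14 (SE 0.19, limma adjusted p = 0.789) without both arrays that stood apart.

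None of the 8 passed at 24 h against 4 h in DMSO, where 3.4% of all probe sets passed, and ATG8E and ATG8F had an unadjusted p below 0.05, as did 17.3%. The value of ATG8E passed without either dexamethasone array at 4 h (limma adjusted p = 0.0159 without replicate 1 and 0.0156 without replicate 2), arrays that enter only through the spread. Without both arrays that stood apart its log2 change was 0.76 with an SE of 0.21 (limma adjusted p = 0.0658). ATG3, ATG8B, ATG8C, ATG8E and ATG8F were higher at 24 h without overlap, as were 23.5% of all probe sets, and ATG8D was lower, as were 24.1%.

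A comparison of 24 h with 4 h over both treatments was added after the values by group had been seen. It has 4 arrays on each side. ATG8D was lower at 24 h and was the 1 gene of the 8 that passed, with 66.3 and 78.0 in dexamethasone and 88.6 and 75.6 in DMSO at 24 h, against 97.8 and 127 in dexamethasone and 95.5 and 111 in DMSO at 4 h. No 24 h array reached a 4 h array, as in 6.52% of all probe sets, while none of the 8 genes lay wholly higher, where 7.72% of all probe sets did. Its log2 change was -0.46 with an SE of 0.12 (95% interval -0.72 to -0.20, limma adjusted p = 0.0356). Of all probe sets 7.7% passed. The call of ATG8D rests on a narrow margin: it was lost when any 1 of 8 of the 10 arrays was left out (limma adjusted p between 0.0507 and 0.151), the exceptions being replicate 1 of dexamethasone at 4 h and replicate 1 of DMSO at 24 h. It was also lost without both arrays that stood apart (log2 change -0.42, SE 0.13, limma adjusted p = 0.0683).

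ATG8E had the opposite sign in the same comparison, 0.52 (SE 0.17, limma adjusted p = 0.0871), and its 24 h signals, 169 to 206, overlapped its 4 h signals, 81.5 to 228, through 1 array, replicate 2 of dexamethasone at 4 h. Without that array its log2 change was 0.71 and it passed (limma adjusted p = 0.00952), as it did without both arrays that stood apart (0.65, SE 0.15, limma adjusted p = 0.0143). ATG8B had 0.25 (SE 0.14, limma adjusted p = 0.344). With all arrays, ATG8D, ATG8E and ATG8F had an unadjusted p below 0.05, as did 20.7% of all probe sets, and the 8 genes had a median of 0.14 with 6 above 0, against 52.8% of all probe sets.

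**Figure D3:**
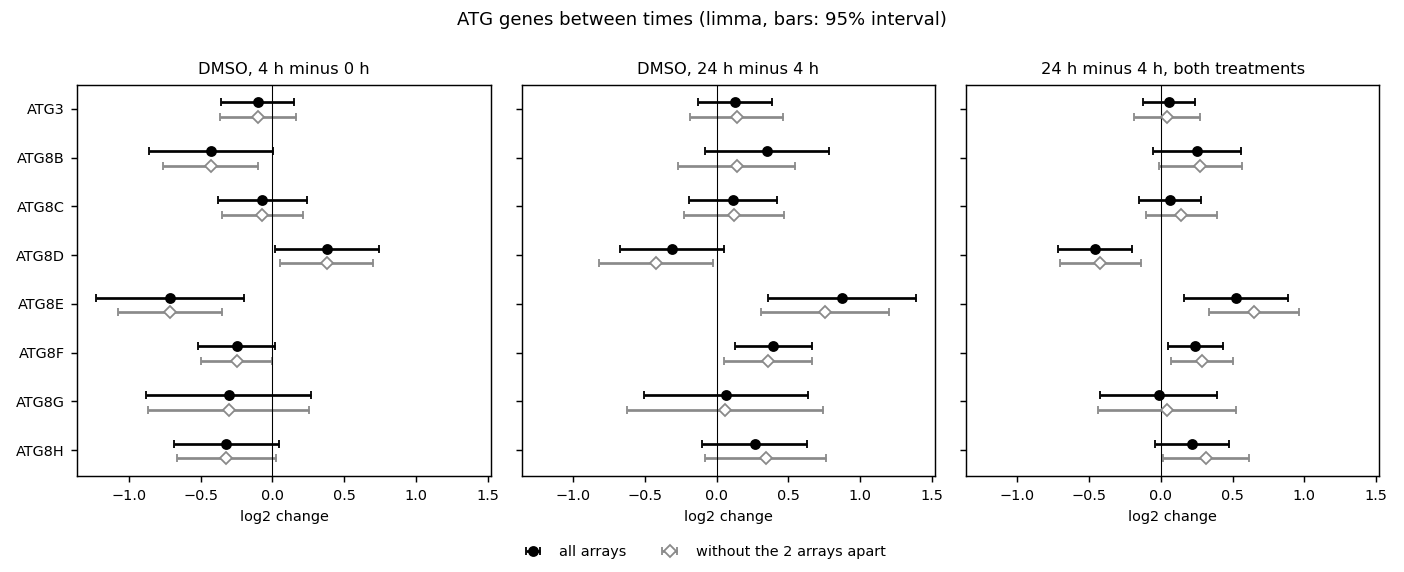
log2 change of the 8 ATG genes between times: DMSO at 4 h minus 0 h, DMSO at 24 h minus 4 h, and 24 h minus 4 h over both treatments; points are limma estimates and bars 95% intervals, with all arrays (black) and without the 2 arrays that stood apart (open, grey). ATG8E and ATG8D lie on opposite sides of 0 in each panel, at -0.71 and 0.38, at 0.88 and -0.31, and at 0.52 and -0.46.

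The ATG8 family is completed on this array by 2 genes that the annotation lists under older symbols, APG8A and APG8H, which RefSeq also names ATG8A and ATG8I. They were singled out for being family members. ATG8A had 221 and 211 in DMSO at 0 h, 149 and 228 with dexamethasone and 150 and 178 with DMSO at 4 h, and 229 and 203 with dexamethasone and 221 and 201 with DMSO at 24 h. Like ATG8E, its 4 h DMSO pair lay below the 0 h and 24 h DMSO pairs, and within the 4 h dexamethasone pair the array with high defence transcripts was the higher. Its log2 changes were 0.17 (SE 0.18, limma adjusted p = 0.849) for dexamethasone at 4 h and -0.39 (SE 0.18, limma adjusted p = 0.364) for DMSO at 4 h against 0 h. Without both arrays that stood apart the value of ATG8A for dexamethasone at 4 h was -0.13 (SE 0.16, limma adjusted p = 0.997), of opposite sign. ATG8I ranged from 412 to 523, with -0.06 for dexamethasone at 4 h and -0.07 for DMSO at 4 h against 0 h. With both added, 9 of 10 genes lay above 0 for dexamethasone at 4 h with a median of 0.13, and 1 of 10 for DMSO at 4 h against 0 h with a median of -0.28. Without both arrays that stood apart, 4 of 10 lay above 0 for dexamethasone at 4 h, with a median of -0.02.

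Of 29 ATG loci that were listed by locus and are not members, ATG8A and ATG8I included, 10 had a single-gene probe set and 9 were tested. With all arrays none of the 9 passed in any comparison, and the smallest limma adjusted p was 0.164, for 24 h against 4 h over both treatments. In that comparison ATG8A, with 0.29 (SE 0.13, limma adjusted p = 0.216), passed without replicate 2 of dexamethasone at 4 h (0.44, limma adjusted p = 0.0232) and without both arrays that stood apart (0.41, limma adjusted p = 0.0414). For dexamethasone at 4 h, 4 of the 9 lay above 0, with log2 changes between -0.30 and 0.25 and a median of -0.06, and without both arrays 2 of the 9 with a median of -0.13. AT5G66930, named ATG101 in RefSeq and in animals part of the kinase complex that starts autophagy, had -0.12 (SE 0.20, limma adjusted p = 0.912), and 0.03 without both arrays. Of 20 listed regulators and receptors 3 were tested, and none passed in any comparison. They were RAPTOR1 and RAPTOR2, versions of the subunit through which the TOR kinase, a brake on autophagy, recognises its targets, and AT4G34660. For dexamethasone at 4 h RAPTOR1 had -0.12. RAPTOR2 had 0.04 (SE 0.36), but its signal, 7.0 to 22.0, exceeded the level required for testing on only 2 arrays.

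Of 8 listed genes of vacuolar breakdown 3 were tested, and with all arrays 1 passed in 1 comparison. That was 24 h against 4 h over both treatments, in which 7.7% of all probe sets passed. GAMMA-VPE, a protease that matures other enzymes in the vacuole, was higher at 24 h, with 408 and 329 in dexamethasone and 445 and 385 in DMSO, against 270 and 329 in dexamethasone and 257 and 292 in DMSO at 4 h. Its log2 change over both treatments was 0.44 (SE 0.11, limma adjusted p = 0.0288), and it was 0.46 (SE 0.12, limma adjusted p = 0.0288) without both arrays that stood apart. The call was lost when any 1 of 5 arrays was left out: either DMSO array at 4 h, replicate 1 of DMSO at 24 h, or the first replicate of either dexamethasone group (limma adjusted p between 0.0546 and 0.137, log2 changes between 0.36 and 0.49). With no filter and without the trend the call was lost too. For dexamethasone against DMSO GAMMA-VPE had 0.12 at 4 h, where it was -0.02 without both arrays that stood apart, and -0.18 at 24 h. BETA-VPE, a related protease singled out after its values were seen, had 0.77 over both treatments (SE 0.25, limma adjusted p = 0.0981). Among the alternatives run it passed when the first 4 h array of DMSO (1.02, limma adjusted p = 0.0435) or of dexamethasone (1.01, limma adjusted p = 0.025) was left out. GAMMA-VPE also passed for 24 h against 4 h in DMSO (0.59) when either 4 h dexamethasone array was left out (limma adjusted p = 0.0395 and 0.0391). Of 10 listed senescence and starvation markers 1 was tested, the transcription factor WRKY53, and it passed in no comparison. Its signal was 30.4 and 40.8 on the 2 arrays with high defence transcripts and 16.4 or less on the other 8. Only on these 2 arrays did it exceed the level required for testing, so it was tested only because it was high there.

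Within the 8 genes, likeness to ATG8E was described by Pearson's r of the log2 values over the 10 arrays, which share scaling and the 2 arrays that stood apart. It was 0.85 for ATG8F, 0.81 for ATG8B, 0.77 for ATG8C, 0.68 for ATG8H, 0.35 for ATG3, 0.28 for ATG8G and -0.19 for ATG8D. Without the 2 arrays the value of ATG8D was -0.74 and that of ATG8F 0.86. For the deviations of replicates from their group means, ATG8D had 0.83 with ATG8E and ATG8F 0.97. With 2 arrays per group, these values rest on 1 replicate difference per group. The largest of ATG8E, 0.74 on the log2 scale, was in dexamethasone at 4 h, which holds an array that stood apart. With dexamethasone at 24 h ATG8E (206 and 190) and ATG8D (66.3 and 78.0) moved in opposite directions, and in the other groups in the same direction. ATG8A had 0.86 over the 10 arrays.

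Over the 1485 other single-gene probe sets with an SD of at least 0.3 on the log2 scale, the 5 most like ATG8E were AT3G52480 (r = 0.92), AT2G15960 (0.92), AT4G21870 (0.91), AT1G23390 (0.89) and AT2G37750 (0.89). The annotation gives them no symbol beyond the locus. Without the 2 arrays that stood apart their r was between 0.88 and 0.97. AT2G15960 had 393 and 578 with dexamethasone at 4 h, against 215 and 320 with DMSO at 4 h, and AT4G21870 had 302 and 531, against 221 and 275. Having been chosen for this likeness over the same arrays, the 5 share the profile of ATG8E by construction: in all of them the 4 h DMSO mean was the lowest of the 5 groups and replicate 2 was the higher of the 4 h dexamethasone pair.

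**Figure D4:**
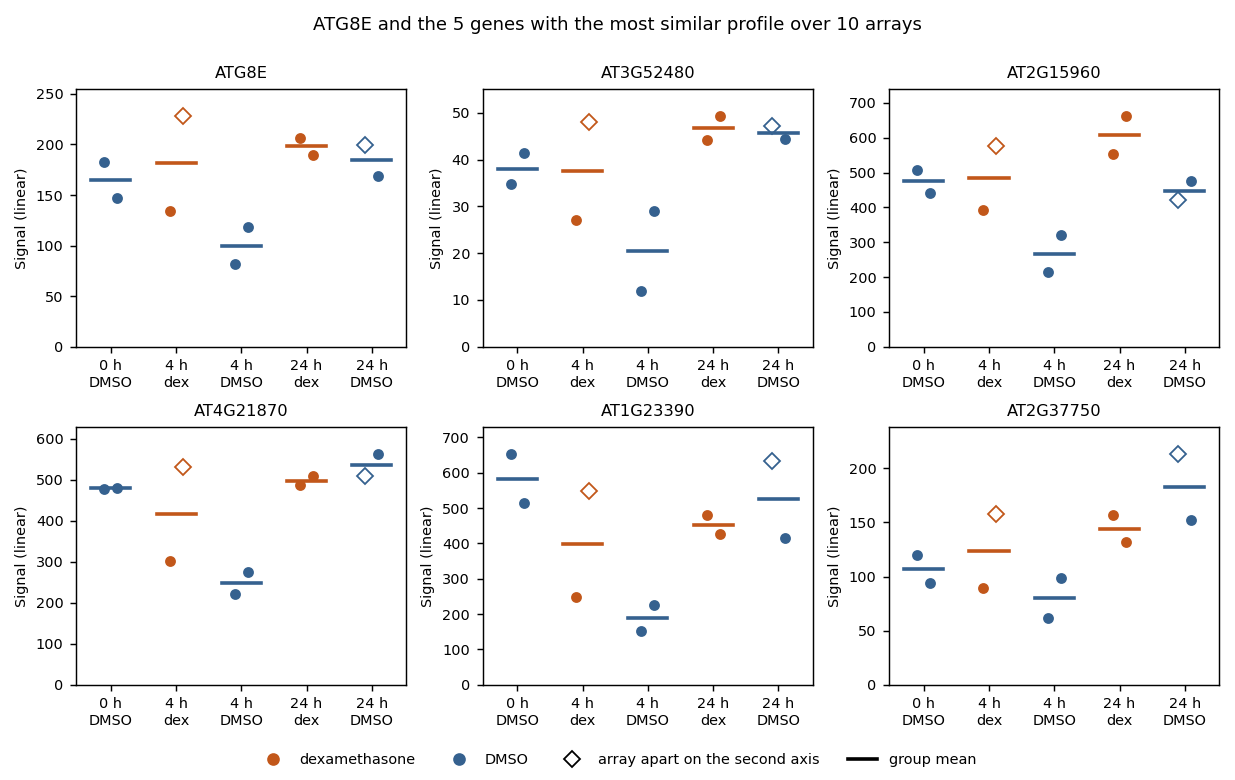
Signal (linear scale, from 0) of ATG8E and of the 5 genes with the highest Pearson r to it over the 10 arrays, by group; points are arrays, bars are group means (n = 2), and open diamonds are the 2 arrays that stood apart. The genes were chosen for their likeness over these arrays; in each panel the DMSO group at 4 h has the lowest mean, 99.8 for ATG8E.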

How the data were processed

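The authors deposited 1 linear signal intensity for each probe set; the submitters' processing notes name MAS5 and GCOS. Neither a version nor a genome build is given in the sources used here. Of the table's 22810 probe sets 64 are controls, and there are no detection calls, so a low intensity cannot be told from background. Gene names came from the platform annotation; all 8 member symbols matched RefSeq (TAIR10.1, used for names only). Sequences were not used here. Intensities were transformed to log2(signal + 4.32), which understates changes of weak signals; the constant is percentile 20 of the signals. A filter kept 14575 probe sets that exceeded percentile 40 on 2 or more arrays. Tests used limma (version 3.58.1, R 4.3.3; lmFit and trended eBayes), fitting a mean for each group over 10 arrays; for the average dexamethasone effect, treatment and time were fitted to 8 arrays, those at 0 h left out. P-values were two-sided and adjusted by Benjamini-Hochberg over all probe sets kept, with a threshold of 0.05. The fit was tested on simulated data. Alternatives were other added constants, other filters, quantile normalization, no trend, a replicate block and leaving out arrays. The number of arrays limits the precision.

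The members, gene lists and tests were chosen with earlier results of these data known. Values on every array are given for ATG8E and, in each comparison, for the 3 members with the largest absolute log2 change. The 5 genes most like ATG8E were taken by Pearson r. Lists of loci of the pathway and of markers were fixed by locus, and those with a single-gene probe set were counted. Python 3.11.15, pandas 2.3.3 and matplotlib 3.10.9 made tables and figures.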

Additional observations from a re-analysis of the deposited data

How the results depend on the processing

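For dexamethasone at 4 h the count of ATG genes that passed was 0 with all arrays and between 0 and 1 without 1 array at a time. For DMSO at 4 h against 0 h it was 0 with all arrays and 1 without both arrays that stood apart. For DMSO at 24 h against 4 h it was 0, and between 0 and 1 without 1 array at a time. For 24 h against 4 h over both treatments it was 1 with all arrays, between 0 and 1 without 1 array at a time, 0 with no filter (smallest limma adjusted p = 0.0662) and 0 without the trend (0.0598). Of 152 recomputed counts 139 stayed the same in number. The number can stay while the gene changes, as from ATG8D to ATG8E for 24 h against 4 h over both treatments. Where almost no probe set passed, as for dexamethasone, a count of 0 had little room to change. No paired origin of equal replicate numbers is stated. The deviations of same-numbered replicates correlated between -0.42 and 0.18 over 10 pairs of groups. The lowest value joined the 2 groups with the arrays that stood apart, whose replicate numbers differ. Whether the numbers pair the samples is therefore not known. With the replicate number as a block the counts of ATG genes that passed were unchanged. They were 1 for 24 h against 4 h over both treatments (limma adjusted p = 0.0426 for ATG8D) and 0 otherwise. Of the 64 log2 changes of the 8 genes over 8 comparisons, 28 took the opposite sign under at least 1 alternative; none of these had passed, and the largest was 0.31 in size with all arrays. Among them, without replicate 2 of DMSO at 24 h the dexamethasone effect at 24 h was -0.0318 for ATG8B and -0.0121 for ATG8E (up to 0.391 and 0.223 without another array), and without both arrays that stood apart the difference between times was 0.0006 for ATG8D (as low as -0.472 without 1 array). The cause was not tested. Over all probe sets, leaving out 1 array moved the count that passed between 1 and 80 at 4 h of dexamethasone (1 with all arrays), 1 and 8 at 24 h (1), 1 and 3 for the average (2), 0 and 14 for the difference (0), 134 and 482 for DMSO at 4 h against 0 h (383), 0 and 4 for 24 h against 0 h (0), 154 and 715 for 24 h against 4 h in DMSO (495) and 651 and 1104 over both treatments (1123). Without both arrays it was 3 for dexamethasone at 4 h, 15 for the average and 639 for DMSO at 4 h against 0 h, and the other settings gave as few as 228, 327 and 832 for the last 3 time comparisons with calls. Each ATG gene had 1 probe set, all plain _at, so other probe sets gave no alternative value, and promoter motifs were not searched.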
